A study of Mus musculus with 6 samples.

Results

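The 30 genes described here cover cholesterol synthesis, uptake and efflux, taken by gene name from a count table of 54532 genes and all 30 present in it. They were chosen in pathway order as 5 regulators, 8 enzymes of the mevalonate steps, 11 enzymes of the sterol steps, 2 genes of uptake and transport, and 4 genes of LXR-driven efflux. All 30 also passed the filter on low counts, which left 12907 genes to test. RNA was sequenced in bulk from MB49, a mouse bladder cancer cell line, in its Y-positive form. The Y-KO libraries (n = 3) carry the genotype CRISPR Y-KO, and the Y-Scr libraries (n = 3) carry CRISPR Y-Scr, made with a guide RNA that targets nothing. Which guide made Y-KO is not stated in the sources used here. Per the labels' protocols, transduced cells carried a red fluorescent marker, were sorted for it and were expanded from single cells, and poly-A RNA went into stranded libraries. All 6 libraries were in batch 1, and the labels name both a cell line and, under tissue, a tumor. Nothing in the labels ties a replicate to a culture or clone of its own, so p-values here cover the spread among these libraries alone, and that spread may be technical.

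Cells make cholesterol from acetyl-CoA through mevalonate and farnesyl diphosphate, from which squalene is built, closed into a ring and trimmed to cholesterol. When membrane sterol is low, the escort protein SCAP carries the SREBP transcription factors from the endoplasmic reticulum to the Golgi, where they are cut and released to the nucleus. INSIG proteins hold the complex back when sterol is plentiful. Oxysterols, made when sterol is in excess, activate the LXR nuclear receptors, which raise the efflux pumps and the ligase that removes lipoprotein receptors from the cell surface.

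Promoters of 5 of the genes are printed here, since these genes differed between Y-KO and Y-Scr in opposite directions while sharing the same CCAAT letters near their starts. In the results below, Hmgcs1, Hsd17b7 and Lss were higher in Y-KO, and Msmo1 and Ggps1 were lower. Each line gives the 180 bases before the RefSeq start of the gene (build GRCm38.p6), read 5′ to 3′ on the strand of the gene. Capitals mark CCAAT or its reverse complement ATTGG, the letters read by the factor NF-Y, and in Hmgcs1 also a match to TCACNCCAC, a form of the sterol response element bound by SREBPs. The windows lie at chr13:119690171-119690350 on the plus strand for Hmgcs1, chr1:169969206-169969385 on the minus strand for Hsd17b7, chr10:76531425-76531604 on the plus strand for Lss, chr8:64733579-64733758 on the minus strand for Msmo1, and chr13:14063489-14063668 on the minus strand for Ggps1.
Hmgcs1: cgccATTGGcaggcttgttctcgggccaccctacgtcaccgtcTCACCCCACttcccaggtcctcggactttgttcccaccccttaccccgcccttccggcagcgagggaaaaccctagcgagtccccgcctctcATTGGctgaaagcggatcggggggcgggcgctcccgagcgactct
Hsd17b7: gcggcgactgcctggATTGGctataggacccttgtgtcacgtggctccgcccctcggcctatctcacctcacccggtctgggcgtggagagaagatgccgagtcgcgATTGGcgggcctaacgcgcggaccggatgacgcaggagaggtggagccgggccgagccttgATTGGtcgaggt
Lss: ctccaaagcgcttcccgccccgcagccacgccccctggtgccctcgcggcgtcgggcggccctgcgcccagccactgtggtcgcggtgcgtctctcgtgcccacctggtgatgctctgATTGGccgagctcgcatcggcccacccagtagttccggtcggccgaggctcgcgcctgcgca
Msmo1: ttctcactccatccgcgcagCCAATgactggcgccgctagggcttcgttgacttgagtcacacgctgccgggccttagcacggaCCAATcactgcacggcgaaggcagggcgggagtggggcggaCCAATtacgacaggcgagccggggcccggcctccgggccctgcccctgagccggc
Ggps1: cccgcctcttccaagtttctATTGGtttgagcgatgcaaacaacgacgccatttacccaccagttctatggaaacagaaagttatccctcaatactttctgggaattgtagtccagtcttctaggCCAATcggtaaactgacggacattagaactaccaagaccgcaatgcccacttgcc

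Msmo1 and Hsd17b7 each held 3 of the CCAAT letters in these 180 bases, Hmgcs1 and Ggps1 each held 2, and Lss held 1. All 5 genes were picked as holding the letters, and whether the number of matches goes with direction was not tested. Over the longer windows that RefSeq gives, 250 bases before to 50 after each start, 25 of the 30 genes had at least 1 window; Fdps, Fdft1, Sqle, Stard4 and Abcg1 had no entry. CCAAT was found on either strand for 20 of these 25 genes, whereas 43.85% of the 9277 tested genes with a window held it. GGGCGG, the GC box read by Sp1, was found for 21 of the 25, against 69.15% of tested genes. TCACNCCAC was found for Hmgcs1 alone among the 25, against 1.34% of tested genes, and in 1.24% of all 32851 windows. The LXR letters, AGGTCA repeated 4 bases apart, were in none of the 34 windows of these 25 genes and in 5 windows in all. These are letter matches in short windows, searched on both strands, and were not tested.

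Of the 30 cholesterol genes, 12 rose in Y-KO, 5 fell, and 13 did not pass edgeR's quasi-likelihood test at an adjusted p under 0.05. That is 40% of the genes higher and 16.7% lower, beside 20.7% higher and 23% lower over all tested genes. In 13 genes every Y-KO library lay above every Y-Scr library, and in 5 every Y-KO library lay below, beside 25.4% and 27.5% of all tested genes. The median log2 fold change of the 30 genes, Y-KO minus Y-Scr, was 0.15, against -0.01 over all tested genes, and single genes ranged from -0.54 (Insig2) to 1.01 (Abca1). Among tested genes averaging at least 10 CPM (counts relative to the TMM-scaled library size), 25.5% rose and 26.2% fell; 26 of the cholesterol genes were in that set, of which 11 rose and 4 fell. In bulk RNA, fewer cells of a type and less RNA per cell cannot be told apart, and this applies to every difference given here.

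**Figure D1:**
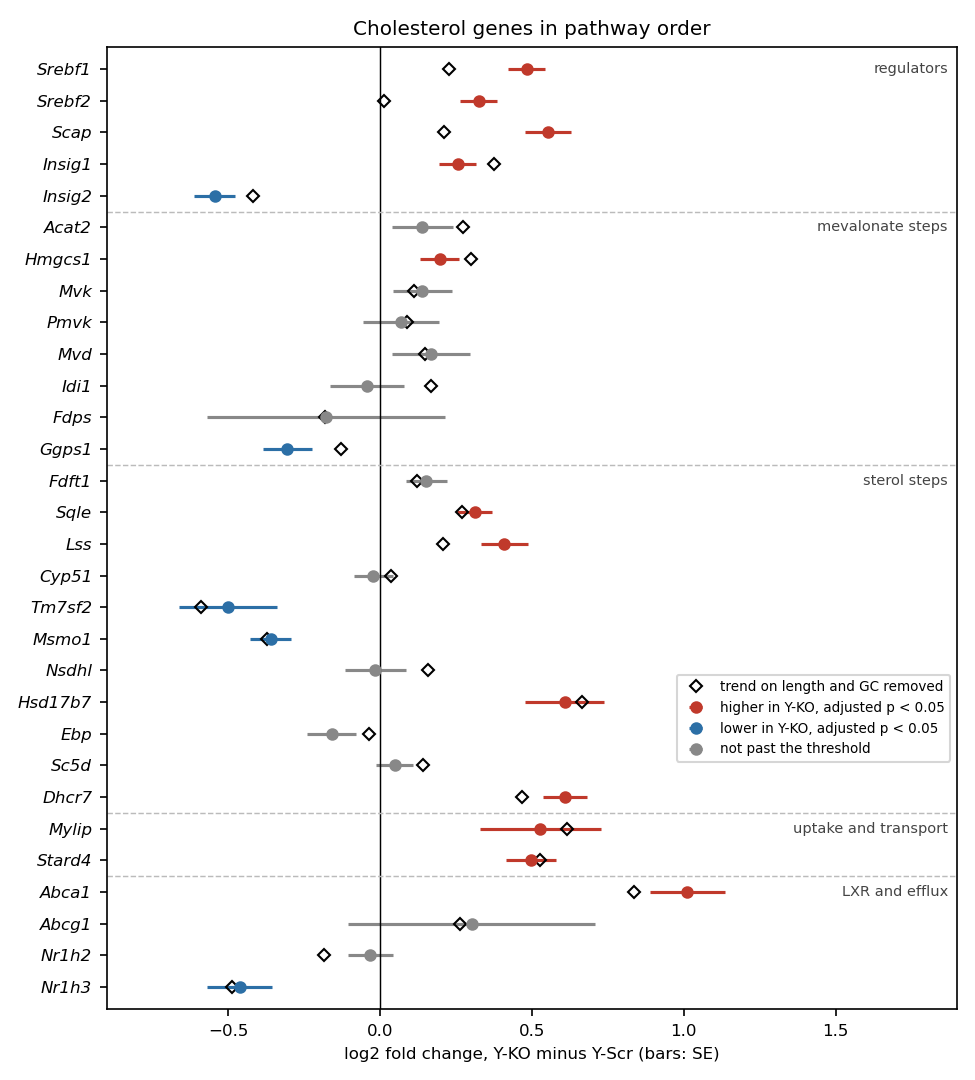
Log2 fold change of each of the 30 genes, Y-KO minus Y-Scr (x axis), in pathway order from top to bottom; bars are standard errors (SE), red marks genes higher and blue genes lower in Y-KO at an edgeR adjusted p under 0.05, and open diamonds give the value after removal of each library's trend on length and GC content. Among the filled points, Abca1 stands farthest to the right at 1.01 and Insig2 farthest to the left at -0.54, and the Srebf2 diamond lies at 0.01.

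The labels were checked against Y genes and cell markers. Ddx3y, Eif2s3y, Kdm5d and Uty, which are genes of the Y chromosome, had 0 counts in each Y-KO library, against 1007 to 3095 counts in the Y-Scr libraries; a count of 0 allows up to 3 counts in a library. Totals were 15698510 to 24633158 counts per library. The keratins Krt8 and Krt18 and the filament gene Vim were abundant in both groups, at 2816, 1351 and 5259.9 CPM on average in Y-KO and 2188, 1326 and 4801 CPM in Y-Scr, whereas the urothelial genes Krt20 and Upk3a had 0 counts in all 6 libraries. Summed over 15 markers of urothelium and this line, the libraries held 9153 to 9596 CPM in Y-KO and 8019 to 8892 CPM in Y-Scr. Nearly all of that sum was Vim, Krt8 and Krt18. Of the 6 tested, Krt8 (log2 fold change 0.36) and Krt19 (2.37) rose in Y-KO and Gata3 (-1.48) fell. Their part in the results below was not tested. The other 9 markers did not pass the filter on low counts. The 12 markers of blood, vessel and stromal cells summed to 97.3 to 102.2 CPM in Y-KO and 109.4 to 117.7 CPM in Y-Scr, nearly all of it Cd68, at 97.6 CPM in Y-KO and 109.9 CPM in Y-Scr (log2 fold change -0.17, edgeR adjusted p = 0.0357). Ptprc, Cd3e, Itgam and Pdgfrb, which define leukocytes, T cells, myeloid cells and pericytes, had 0 counts in every library. Other markers of this list had a few reads. Lyz2 had 9 to 35 counts and Des 8 to 25 counts per library, and neither passed the test. Cdh5, Acta2, Pecam1 and Adgre1 had 0 to 11 counts per library. The part of cells expressing Cd68 or these other markers in the results below was not tested.

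Longer and more GC-rich genes tended to be higher in Y-KO. Over all tested genes, the median log2 fold change was -0.14 in the shortest 20% of genes and 0.14 in the longest 20%, and -0.12 in the 20% lowest in GC and 0.10 in the 20% highest. Removing each library's trend on length and GC content left 13 of the cholesterol genes higher and 5 lower in Y-KO. By this removal 2 calls were lost (Srebf2 and Ggps1) and 3 gained (Acat2 and Sc5d higher, Nr1h2 lower). The shares over all tested genes given above are from the fit without this removal, so these counts have no share beside them.

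All 5 regulators passed the test, 4 higher (80%) and 1 lower (20%) in Y-KO, beside 20.7% higher and 23% lower over all tested genes. Both SREBP genes were higher. Srebf1, which encodes the SREBP form that mainly drives fatty acid genes (chr11:60199089-60222581), had 299, 309.8 and 300.1 CPM in Y-KO, against 223, 206 and 221 CPM in Y-Scr. Its 3 Y-KO libraries agreed closely and lay well above all 3 Y-Scr libraries, a log2 fold change of 0.48 ± 0.06 (SE; edgeR adjusted p = 3.46e-06). Srebf2, the SREBP that mainly drives cholesterol synthesis (chr15:82147181-82205379), had 429.5, 446 and 439.8 CPM in Y-KO, against 366, 329 and 355 CPM in Y-Scr. The groups did not overlap, and the log2 fold change was 0.32 ± 0.06 (edgeR adjusted p = 0.000322). With the trend on length and GC removed, the Srebf2 call was lost (log2 fold change 0.01, edgeR adjusted p = 0.847), while Srebf1 kept 0.23 (edgeR adjusted p = 0.00105).

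Scap, the gene of the escort protein, showed 72.4, 70.9 and 67.5 CPM in Y-KO and 47.6, 46.9 and 49.0 CPM in Y-Scr. No Y-Scr library came near the lowest Y-KO library, and the log2 fold change was 0.55 ± 0.08 (edgeR adjusted p = 8.65e-06); with the trend on length and GC removed it was 0.21 (edgeR adjusted p = 0.0189). The 2 INSIG genes, whose proteins retain SCAP, went in opposite directions. Insig1, itself a well-known SREBP target, had 141, 138 and 134 CPM in Y-KO and 117, 117 and 112 CPM in Y-Scr. This rise was 0.26 ± 0.06 on the log2 scale (edgeR adjusted p = 0.00204), without overlap between the groups. Insig2 (chr1:121304353-121332589), which is not a classical SREBP target, had 87.0, 94.7 and 90.5 CPM in Y-KO and 136, 137 and 124 CPM in Y-Scr. All Y-KO libraries were below all Y-Scr libraries, and the log2 fold change was -0.54 ± 0.07 (edgeR adjusted p = 2.47e-06).

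The pair of INSIG genes thus had different proportions in the groups. Per kilobase of gene length, Insig1 averaged 44.5 CPM in Y-KO and 37.3 CPM in Y-Scr, and Insig2 averaged 26.1 CPM in Y-KO and 38.1 CPM in Y-Scr. The 2 genes had nearly equal levels in Y-Scr, and Insig1 was the higher one in Y-KO. Summed over the 5 regulators, the libraries held 1029.0 to 1059.5 CPM in Y-KO and 835.9 to 890.0 CPM in Y-Scr.

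**Figure D2:**
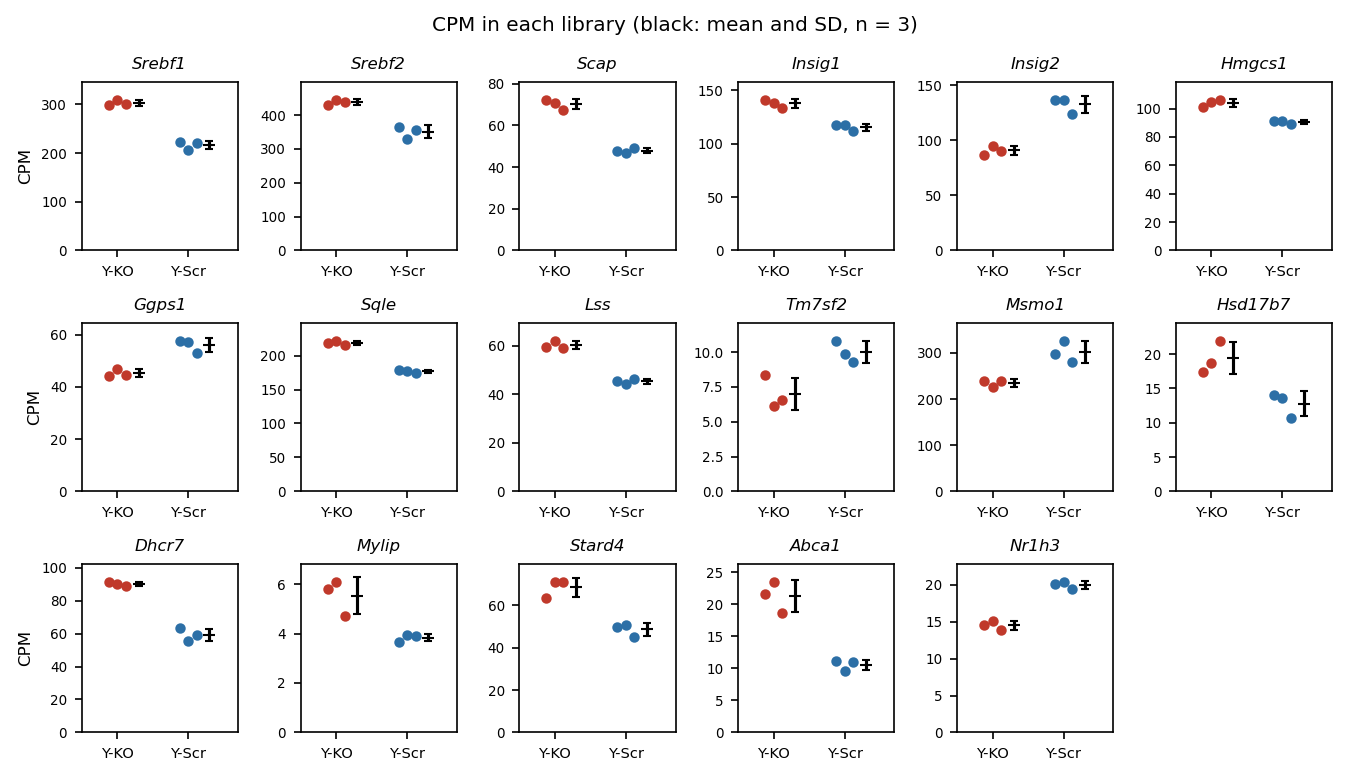
CPM (y axis, starting at 0) in each of the 3 Y-KO libraries (red) and 3 Y-Scr libraries (blue) for the 17 cholesterol genes past the threshold, with the mean and SD in black. In each panel the groups do not overlap; Insig2, Ggps1, Tm7sf2, Msmo1 and Nr1h3 are the panels with Y-KO below Y-Scr.

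The mevalonate steps moved little. Of their 8 genes 1 rose, 1 fell (12.5% each) and 6 did not pass, beside 20.7% higher and 23% lower over all tested genes. Their summed level was 325.6 to 332.3 CPM in Y-KO against 299.5 to 335.7 CPM in Y-Scr. Hmgcs1, the synthase that makes HMG-CoA in the cytosol and whose promoter is printed above with its sterol response letters, had 101, 104 and 106 CPM in Y-KO and 91.4, 91.4 and 89.1 CPM in Y-Scr. The groups did not overlap and both were tight, but the difference was small, 0.20 ± 0.06 on the log2 scale (edgeR adjusted p = 0.0172). That call was lost without Y-KO replicate 2 (edgeR adjusted p = 0.0563) or Y-KO replicate 3 (edgeR adjusted p = 0.0909).

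Ggps1, whose enzyme leaves the sterol line to make geranylgeranyl diphosphate for protein prenylation, was the gene that fell. Its levels were 44.3, 47.0 and 44.6 CPM in Y-KO and 57.7, 57.3 and 53.0 CPM in Y-Scr. Each Y-KO library was below each Y-Scr library, with a log2 fold change of -0.31 ± 0.08 (edgeR adjusted p = 0.00427), but the call was lost once the trend on length and GC was removed (-0.13, edgeR adjusted p = 0.165).

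Among the 6 genes that did not pass, log2 fold changes ran from -0.18 for Fdps to 0.17 for Mvd. The 2 kinases, Mvk and Pmvk, averaged 32.8 ± 3.07 and 21.4 ± 2.73 CPM in Y-KO and 29.8 ± 2.08 and 20.3 ± 3.34 CPM in Y-Scr (SD, n = 3 each), and Mvd, the decarboxylase after them, averaged 19.2 ± 2.34 CPM in Y-KO and 17.0 ± 2.75 CPM in Y-Scr. None of these 3 differences exceeded the larger SD of its groups. Acat2, the thiolase that opens the pathway, had 55.4, 56.3 and 55.8 CPM in Y-KO and 51.5, 59.2 and 41.9 CPM in Y-Scr. Idi1, the isomerase, had 49.0, 48.9 and 49.9 CPM in Y-KO and 54.2, 59.3 and 39.3 CPM in Y-Scr. In both genes the Y-KO libraries were nearly identical and Y-Scr replicates 2 and 3 lay on either side of them. Reads of both may be split with copies elsewhere, since 45.9% of the 50-base windows of the longest coding transcript of Acat2, and 30.5% of those of Idi1, also occur in transcripts of other genes.

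Fdps, which encodes farnesyl diphosphate synthase at the branch between sterols and isoprenoids, was counted at 39, 12 and 21 reads in Y-KO and 22, 30 and 34 reads in Y-Scr. Per kilobase it was the lowest of the 30 genes in Y-KO, at 0.319 CPM, and had 0.367 CPM in Y-Scr, where Abcg1 averaged 0.347 CPM; it lay between neighbours in the pathway at 9.59 to 14.5 CPM per kilobase. Of the 50-base windows in its 1382-base coding transcript, 86.4% also occur in transcripts of other genes. Most of the sequence that Fdps shares lies in Gm43738, which overlaps 26.7% of its exonic bases on the same strand and had 0 counts. Part of it lies in the processed pseudogene Gm3571 (chr10:93778660-93779719), which was counted at 134, 147 and 125 reads in Y-KO and 130, 117 and 205 reads in Y-Scr, several times more than Fdps itself. The Fdps level is therefore uncertain, and neither Fdps nor Gm3571 passed the test.

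**Figure D3:**
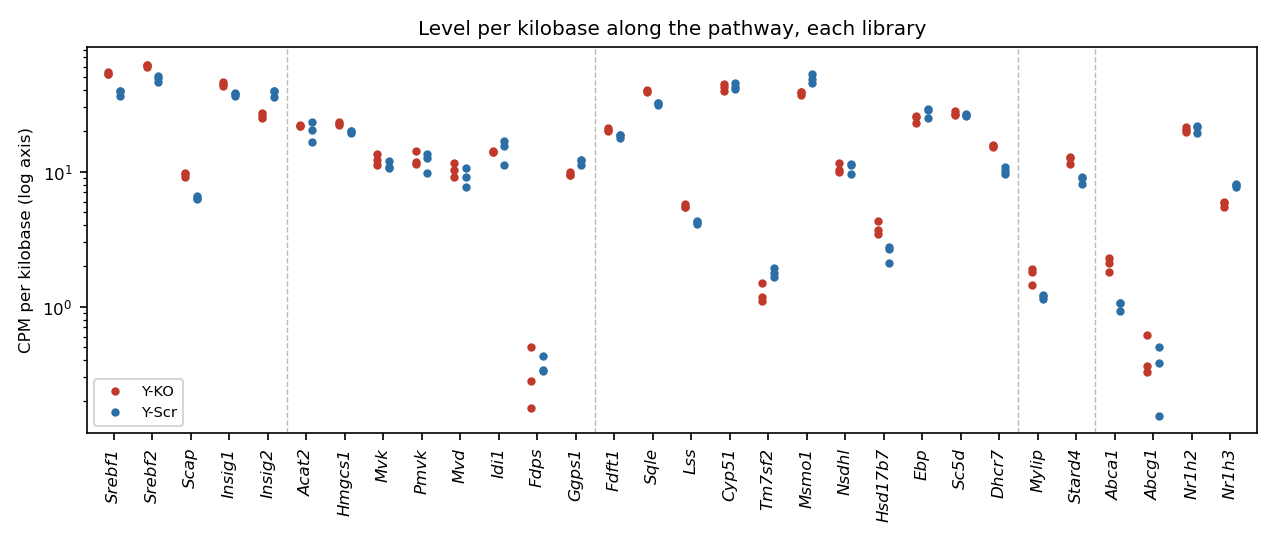
CPM per kilobase of gene length (y axis, log scale) in each Y-KO library (red) and Y-Scr library (blue) for the 30 genes in pathway order. Srebf2 is the highest in Y-KO at 61.0, with 48.7 in Y-Scr, where Msmo1 averages 49.1, and Fdps and Abcg1 are the lowest 2 genes, below 1 in every library.

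The sterol steps were mixed. Of their 11 genes 4 rose (36.4%), 2 fell (18.2%) and 5 did not pass, beside 20.7% higher and 23% lower over all tested genes. Fdft1, squalene synthase, opens this arm and had 85.0, 86.0 and 88.3 CPM in Y-KO and 75.0, 78.6 and 79.5 CPM in Y-Scr. Its groups did not overlap, although the test was not passed (log2 fold change 0.15 ± 0.07, edgeR adjusted p = 0.0727). Ctsb, on the opposite strand, covers 18.3% of its exonic bases, and whether reads were counted by strand is not stated in the sources used here.

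Sqle and Lss, the next 2 enzymes, both rose. Sqle, the squalene epoxidase, had 219, 222 and 216 CPM in Y-KO and 179, 177 and 174 CPM in Y-Scr. The libraries of each group lay close together without overlap between groups, and the log2 fold change was 0.31 ± 0.06 (edgeR adjusted p = 0.000266). Lss, the cyclase that forms lanosterol, had 59.3, 62.0 and 59.0 CPM in Y-KO and 45.3, 44.2 and 46.2 CPM in Y-Scr. Here too the groups stood apart, with a log2 fold change of 0.41 ± 0.08 (edgeR adjusted p = 0.000276), which was 0.21 with the trend on length and GC removed.

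Of the next 3 genes, which act on lanosterol and its products, Cyp51 did not pass the test and Tm7sf2 and Msmo1 fell. Cyp51, which removes the first methyl group, had 196, 175 and 187 CPM in Y-KO and 182, 199 and 187 CPM in Y-Scr. These ranges overlapped almost fully, and the log2 fold change was -0.02 ± 0.06 (edgeR adjusted p = 0.801). Tm7sf2, a sterol reductase whose reaction can also be carried out by another protein, had 8.33, 6.16 and 6.57 CPM in Y-KO and 10.8, 9.86 and 9.27 CPM in Y-Scr. It was lower without overlap, at -0.50 ± 0.16 (edgeR adjusted p = 0.0160), but the call did not survive leaving out Y-KO replicate 2, Y-KO replicate 3 or Y-Scr replicate 1 (edgeR adjusted p = 0.0797, 0.0633 and 0.0582). It shares 12.1% of its exonic bases with Vps51 on the same strand, so part of its count is uncertain. Msmo1, the oxidase that starts removal of the remaining methyl groups (chr8:64718139-64733792), had 239, 226 and 239 CPM in Y-KO and 298, 326 and 280.0 CPM in Y-Scr. It fell by 0.36 on the log2 scale (SE 0.07, edgeR adjusted p = 0.000222), and no Y-KO library reached the lowest Y-Scr library.

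Nsdhl and Hsd17b7 act with Msmo1 on those methyl groups, and the 3 genes of the complex differed in direction. Nsdhl, the dehydrogenase, averaged 30.2 ± 2.63 CPM in Y-KO and 30.6 ± 2.98 CPM in Y-Scr (SD, n = 3 each), a log2 fold change of -0.02. Hsd17b7, the reductase, had 17.5, 18.7 and 22.0 CPM in Y-KO and 14.1, 13.6 and 10.7 CPM in Y-Scr. Both groups were spread, yet the lowest Y-KO library exceeded the highest Y-Scr library, and the log2 fold change was 0.61 ± 0.13 (edgeR adjusted p = 0.000932). Per kilobase Msmo1 remained the most abundant of the 3, at 38.2 CPM in Y-KO and 49.1 CPM in Y-Scr, and Hsd17b7 the least, at 3.80 CPM in Y-KO and 2.51 CPM in Y-Scr.

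Ebp, the isomerase, averaged 57.1 ± 3.62 CPM in Y-KO and 63.7 ± 5.04 CPM in Y-Scr, and Sc5d, the desaturase after it, averaged 131 ± 4.75 CPM in Y-KO and 127 ± 1.76 CPM in Y-Scr (SD, n = 3 each). Neither passed the test (edgeR adjusted p = 0.125 and 0.558). Dhcr7, the reductase at the end of one arm of the pathway (chr7:143823145-143848410), had 91.5, 90.3 and 89.0 CPM in Y-KO and 63.1, 55.5 and 59.1 CPM in Y-Scr. The Y-KO libraries lay within a few CPM of each other and well above Y-Scr, a 1.52-fold rise like that of Hsd17b7 (log2 fold change 0.61 ± 0.07, edgeR adjusted p = 1.72e-06). The 11 sterol genes summed to 1102.9 to 1132.8 CPM in Y-KO and 1063.8 to 1132.7 CPM in Y-Scr, ranges that overlapped while single genes rose or fell.

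Both genes of uptake and transport were higher in Y-KO. Stard4, a small cytosolic carrier that moves sterol between membranes, had 63.4, 71.3 and 70.9 CPM in Y-KO and 49.9, 50.9 and 45.0 CPM in Y-Scr. The groups did not overlap, and the log2 fold change was 0.50 ± 0.08 (edgeR adjusted p = 7.09e-05). Mylip, the LXR-induced ubiquitin ligase that removes lipoprotein receptors, was among the low genes, with 5.80, 6.10 and 4.70 CPM in Y-KO and 3.67, 3.93 and 3.88 CPM in Y-Scr. Its log2 fold change of 0.53 ± 0.20 was only just called (edgeR adjusted p = 0.0385), and the call was lost under 8 of 16 alternative settings, among them DESeq2 (adjusted p = 0.0519) and leaving out any one library other than Y-KO replicate 3.

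The efflux pumps and the LXR genes did not move as a group. Abca1, the pump that loads cholesterol onto lipid-poor apolipoproteins (chr4:53030787-53159895), had 21.6, 23.5 and 18.6 CPM in Y-KO and 11.1, 9.56 and 10.9 CPM in Y-Scr. It was 2.02-fold higher in Y-KO, the largest change among the 30 genes (log2 fold change 1.01 ± 0.12, edgeR adjusted p = 2.35e-06). With the trend on length and GC removed, its log2 fold change was 0.84. Abcg1, the pump that passes sterol to larger particles, had 1.34, 2.49 and 1.47 CPM in Y-KO and 0.633, 2.06 and 1.55 CPM in Y-Scr. Those ranges overlapped at a low level, and the log2 fold change of 0.30 carried an SE of 0.41.

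Of the 2 LXR receptors, Nr1h3 (LXR alpha) was lower in Y-KO, with 14.6, 15.1 and 13.8 CPM, against 20.1, 20.4 and 19.4 CPM in Y-Scr. The 2 groups were each tight and lay apart, with a log2 fold change of -0.46 ± 0.11 (edgeR adjusted p = 0.00163). Nr1h2 (LXR beta), the receptor found in most tissues, had 67.9, 71.4 and 65.8 CPM in Y-KO and 72.1, 64.8 and 72.7 CPM in Y-Scr, and its log2 fold change was -0.03 ± 0.08. Per kilobase Nr1h2 was the more abundant receptor in both groups, at 20.4 CPM in Y-KO and 20.8 CPM in Y-Scr, against 5.76 CPM in Y-KO and 7.95 CPM in Y-Scr for Nr1h3.

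Other genes that handle sterol were counted beside the same shares over all tested genes, 20.7% higher and 23% lower. Among 13 genes of SREBP processing and sterol-regulated degradation, 2 rose (15.4%) and 8 fell (61.5%) in Y-KO, with a median log2 fold change of -0.22. With the trend on length and GC removed 6 fell. With a library left out 6 to 9 fell, beside 2458 to 3000 of all 13188 to 13248 tested genes. The falls included Erlin1, part of an endoplasmic reticulum complex in that degradation, at 150.5 ± 6.48 CPM in Y-KO and 227 ± 13.1 CPM in Y-Scr (log2 fold change -0.59), and Ube2g2, a ubiquitin-conjugating enzyme, at 61.2 ± 2.82 CPM in Y-KO and 91.5 ± 5.38 CPM in Y-Scr (log2 fold change -0.58). The rises were 2 ubiquitin ligases, Rnf145 at 0.65 and Syvn1 at 0.33 on the log2 scale, of which Syvn1 was lost with the trend on length and GC removed (0.15, edgeR adjusted p = 0.0855). In the isoprenoid branch beyond Ggps1, 3 of 13 genes rose and 3 fell (23.1% each), near the shares over all genes. Coq2, which attaches the isoprenoid tail in ubiquinone synthesis, was -0.46, Fnta, the subunit shared by 2 prenyltransferases, -0.35, Rabggta, of the Rab prenyltransferase, -0.31, and Icmt, which methylates prenylated proteins, 0.43.

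Of 20 genes of cholesterol trafficking and esterification, 18 were tested, of which 6 rose and 6 fell (33.3% each). Soat2, which esterifies cholesterol for storage or secretion, had 13.9, 14.7 and 13.0 CPM in Y-KO and 41.3, 43.0 and 40.0 CPM in Y-Scr. That difference, -1.58 ± 0.10 on the log2 scale (edgeR adjusted p = 1.21e-10), was larger than that of any of the 30 cholesterol genes. Osbpl2 and Osbpl9, of the oxysterol-binding protein family, fell by 0.71 and 0.50 on the log2 scale, and the lipoprotein receptor gene Lrp8 rose by 0.67.

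Most tested genes around LXR and in the fatty acid arm of SREBP were higher. Of 12 further LXR targets and partners 6 were tested and 5 rose, including the partner Rxra (log2 fold change 0.63), the corepressor Ncor1 (0.40) and the phospholipid enzyme Lpcat3 (0.34). The LXR target genes Abcg5, Abcg8, Smpdl3a and Mertk had 0 counts in all 6 libraries. Of 14 SREBP fatty acid targets 11 were tested and 10 rose, with a median log2 fold change of 0.51, among them the desaturase Scd2 (0.89), the carboxylase Acaca (0.91), the lyase Acly (0.51), which supplies acetyl-CoA to sterols as well, and the elongase Elovl6 (0.63). Of 8 genes of oxysterol metabolism only Sult2b1, a sterol sulfotransferase, was tested, with 7.95 ± 1.31 CPM in Y-KO and 5.78 ± 1.10 CPM in Y-Scr (SD, n = 3 each; edgeR adjusted p = 0.0504). The hydroxylases of cholesterol and oxysterols Ch25h, Cyp7a1 and Cyp7b1 had 0 counts in every library, and Cyp27a1 and Cyp46a1 had at most 2 counts in any.

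**Figure D4:**
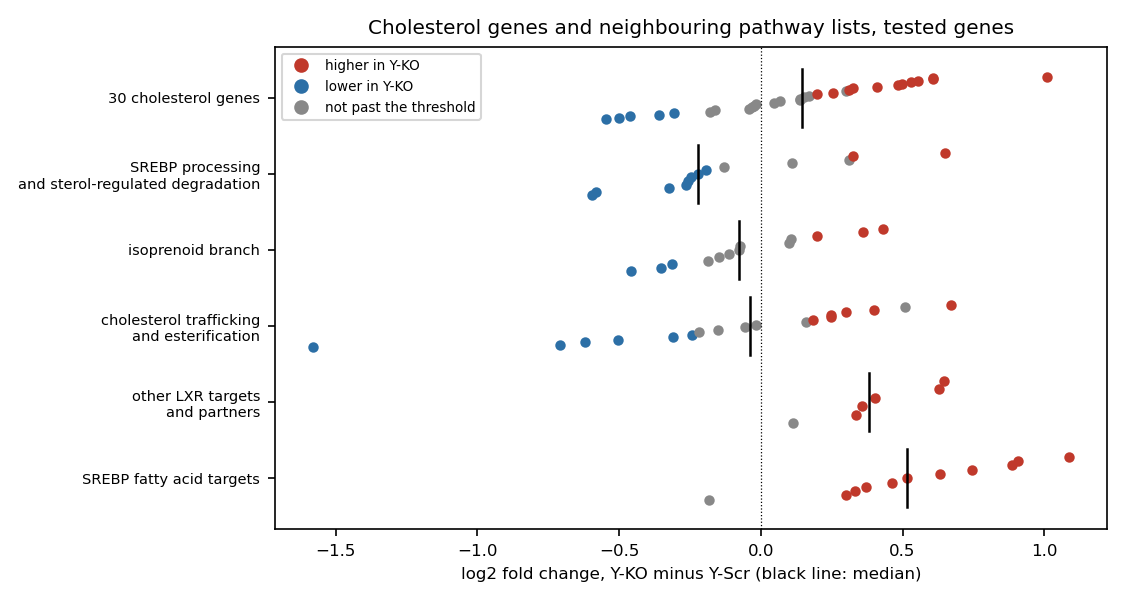
Log2 fold change, Y-KO minus Y-Scr (x axis), of each tested gene in the 30 cholesterol genes and 5 neighbouring lists (rows), with red for genes higher and blue for genes lower in Y-KO past the threshold and a black line at the median. The medians are 0.15 for the cholesterol genes, -0.22 for SREBP processing and degradation and 0.51 for the SREBP fatty acid targets; Soat2 is the point at -1.58.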

How the data were processed

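Bulk RNA-seq of 6 MB49 libraries (Y-KO and Y-Scr, n = 3 each) was analysed. The authors deposited whole-number read counts per gene with gene lengths, not normalized; per the submitters' processing notes, they used STAR 2.5.2b, featureCounts 1.5.3, Trimmomatic 0.39, MultiQC 1.13, FastQC 0.12.1 and DESeq2. The notes name GRCm39, but 98.3% of 54409 deposited gene coordinates match GENCODE M21 on GRCm38, so coordinates are given as GRCm38. Whether reads were counted by strand is not stated in the sources used here.

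Groups were compared with edgeR 4.0.16 (R 4.3.3): TMM scaling, filterByExpr, robust quasi-likelihood fit on group alone, and Benjamini-Hochberg adjustment over 12907 genes at 0.05; the script was tested on simulated data. Differences on the log2 scale are Y-KO minus Y-Scr, with SE. CPM uses TMM-scaled library sizes, and levels are compared between genes only per kilobase of deposited gene length. Replicate pairs differed by more than sampling noise, with chi-square per degree of freedom of 3.44 to 14.8. Depth of 15698510 to 24633158 counts limits precision for genes near 1 CPM, such as Fdps and Abcg1.

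Alternatives were RLE and upper-quartile scaling, DESeq2 1.42.0, limma-voom (limma 3.58.1), protein-coding genes only, a filter of 1 CPM in 3 libraries, no filter, a replicate block, each library left out, and the trend on gene length removed (natural splines, 4 degrees of freedom); removal of the trend on length and GC content was added after seeing the data. The 30 genes and the other lists were chosen with earlier results of these data known. All 30 are named, with up to 4 genes per other list by smallest adjusted p, and the genes with overlapping or near-identical copies where a value turns on them; genes at 0 counts were named after their values were seen, and values of some genes this rule takes are left out. Promoter sequences are from RefSeq (GRCm38.p6).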

Additional observations from a re-analysis of the deposited data

How the results depend on the processing

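Over the 30 genes and 16 alternative settings, 456 of 480 results kept their side of the threshold, 16 were no longer past it and 8 became past it. No called gene changed sign; of the genes not called, Pmvk, Idi1, Fdps, Cyp51, Nsdhl, Abcg1 and Nr1h2 did under at least 1 setting. Of the calls, 9 of 12 higher and 3 of 5 lower held in all 16 settings. The settings other than leaving out a library gave 10 to 15 cholesterol genes higher and 5 lower. That range has no count over all genes beside it here, except for the replicate block below. Leaving out each library gave 10 to 12 higher and 4 to 5 lower. Over all genes, those fits gave 2141 to 2803 higher and 2458 to 3000 lower, of 13188 to 13248 tested. The median log2 fold change of the 30 genes was 0.21 with the trend on gene length removed, and 0.0983 to 0.176 with each library left out, lowest without Y-Scr replicate 1. With that length trend removed, Mvk, Mvd and Fdft1 were also called higher, and with length and GC removed Acat2 and Sc5d were called higher and Nr1h2 lower (-0.18). With length and GC removed, 1 gene of SREBP processing and degradation rose, since Syvn1 was lost, and 1 SREBP fatty acid target fell, as it also did with length alone removed. One oxysterol gene, Sult2b1, was called higher under RLE and upper-quartile scaling, limma-voom, protein-coding genes only, a filter at 1 CPM, no filter and length removed, and 0 to 1 were with a library left out. Isoprenoid genes called higher numbered 1 to 3 with a library left out. The causes were not tested. Replicate numbers do not pair these libraries: same-numbered Y-KO and Y-Scr libraries correlated at -0.064, -0.034 and -0.024 in their deviations from group means, and none of the 3 Y-KO libraries correlated best with its own number. A replicate block left 10 of the 30 genes higher and 5 lower (2333 and 2627 of all genes), losing Hmgcs1 and Mylip.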
